A study of Rattus norvegicus with 3 samples.

Results

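Chromatin remodelling and corepressor genes were examined for binding of HA-tagged TET2 in rat aortic smooth muscle cells (SMC). The genes were taken by their symbol in the deposited peak lists, as Smarc genes, numbered Chd, Arid, Brd, Baz, Gatad, Mta and Sirt genes, Hdac3 to Hdac11, genes named Ino80, Ep300, Crebbp, and corepressor scaffold genes such as Ncor1, Sin3a and Sin3b. This took 62 of the 14740 genes with an assigned peak, and 162 of the 35044 peaks. Of these peaks 46, at 34 genes, were in the Myocd-LSD1 list and 116, at 58 genes, were in the Control list. Cells of the line Myocd-LSD1 (1 sample) and of the wild-type line named Ctrl SMC (2 samples that name the same list, here Control) were given Adv-HA-TET2 for 24 h, so the tagged TET2 was supplied from outside in both groups. The sources used here do not say how the Myocd-LSD1 line was made or whether it is 1 clone. TET2 was mapped by CUT&Tag, in which an antibody against the tag brings a transposase to the bound DNA, from 500000 cells per assay.

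Many products of these genes move, read or deacetylate nucleosomes, while some that the symbols take, such as mitochondrial sirtuins, act elsewhere. SWI/SNF, ISWI, CHD and INO80 complexes use ATP to slide, eject or exchange nucleosomes. Bromodomain proteins read acetylated histones, CBP and p300 write that acetylation, and histone deacetylases held by NuRD, SIN3 and NCoR scaffolds remove it. In smooth muscle, SWI/SNF ATPases are known partners of the SRF and myocardin programme, and class IIa deacetylases repress MEF2 factors. TET2 itself oxidises 5-methylcytosine, mostly where a C is followed by a G.

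Each group had 1 peak list, so no value has a replicate error and no test between the groups could be made. Intervals given below are exact binomial (Clopper-Pearson) 95% intervals, cover counting error only, and treat peaks as independent, which peaks of 1 gene are not. The lists hold no read totals. The number of overlapping fragments at each summit was worked out from the deposited fold and p-value. The lowest background under the peaks was 0.0633 fragments in the Myocd-LSD1 list and 0.175 in the Control list, and the weakest peaks rested on 2 fragments in the Myocd-LSD1 list and 3 in the Control list. A smaller number of bound sites and a thinner library therefore cannot be told apart in these data. No expression was measured, so the labelled cell type could not be checked by marker levels. Of 7 smooth muscle genes 3 had an assigned Myocd-LSD1 peak and 7 a Control peak, of 5 endothelial genes 1 had a Myocd-LSD1 peak and 5 a Control peak, and of 3 leukocyte genes 0 had a Myocd-LSD1 peak and 1 a Control peak. Presence of an assigned peak is no measure of cell type, and the share over all genes is not given here.

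Promoters of 4 of the genes are shown because a Control peak lay across the start site of each. They had the highest such peaks by fold, with and without overlap, among genes with a single promoter in the table whose peak was assigned to a curated transcript that RefSeq still lists for the gene. Start site peaks of Arid4a, Arid4b, Brd9 and Smarcc1 had a higher fold than at least 1 of those chosen, but their transcript is not in that list. Those of Gatad2a and Smarca4 were overlapped by a Myocd-LSD1 peak, and those of Smarcd1 and Mta2 were not. The sequences run 5′ to 3′ on the gene's strand from 250 bases before to 50 bases after the start that RefSeq gives on build GRCr8. Peak coordinates are on build rn6, and the sequences were tied to the peaks by gene symbol, strand and transcript accession, not by coordinates. Capitals mark each CG, the pair at which TET2 mostly acts. It reads the same on both strands.
Gatad2a: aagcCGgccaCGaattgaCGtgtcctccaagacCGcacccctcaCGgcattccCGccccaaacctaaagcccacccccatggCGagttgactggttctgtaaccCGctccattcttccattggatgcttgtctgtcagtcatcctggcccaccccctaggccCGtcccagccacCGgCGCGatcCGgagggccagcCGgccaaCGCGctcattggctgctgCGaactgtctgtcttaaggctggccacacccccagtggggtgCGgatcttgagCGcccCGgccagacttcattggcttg
Smarca4: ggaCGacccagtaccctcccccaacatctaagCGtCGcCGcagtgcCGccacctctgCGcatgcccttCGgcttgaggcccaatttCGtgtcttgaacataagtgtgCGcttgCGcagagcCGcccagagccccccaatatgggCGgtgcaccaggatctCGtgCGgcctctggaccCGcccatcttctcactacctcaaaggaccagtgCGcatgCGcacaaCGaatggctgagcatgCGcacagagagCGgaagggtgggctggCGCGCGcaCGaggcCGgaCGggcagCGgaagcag
Smarcd1: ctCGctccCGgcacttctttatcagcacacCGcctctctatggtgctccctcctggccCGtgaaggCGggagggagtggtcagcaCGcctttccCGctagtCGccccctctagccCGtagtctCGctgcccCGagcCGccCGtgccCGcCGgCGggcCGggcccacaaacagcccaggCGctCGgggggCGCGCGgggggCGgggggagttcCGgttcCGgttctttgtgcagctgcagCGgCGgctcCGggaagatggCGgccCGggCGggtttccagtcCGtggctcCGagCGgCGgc
Mta2: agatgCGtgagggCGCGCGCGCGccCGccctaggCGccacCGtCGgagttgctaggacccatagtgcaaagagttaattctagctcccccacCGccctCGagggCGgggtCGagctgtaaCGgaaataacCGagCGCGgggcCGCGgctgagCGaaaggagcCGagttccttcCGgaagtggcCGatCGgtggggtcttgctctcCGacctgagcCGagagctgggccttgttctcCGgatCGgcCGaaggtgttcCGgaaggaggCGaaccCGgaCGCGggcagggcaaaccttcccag
The window of Gatad2a (chromosome 16, plus strand, 19463250 to 19463549) held 20 CG pairs and that of Smarca4 (chromosome 8, plus strand, 28443569 to 28443868) held 27. The windows of Smarcd1 (chromosome 7, plus strand, 132708377 to 132708676) and Mta2 (chromosome 1, plus strand, 215267036 to 215267335) held 35 each. The windows with an overlapped peak thus held fewer CG pairs than the others among these 4. Over all genes with a Control peak within 1 kb the medians lay the other way, at 24 CG pairs where a peak was overlapped and 21 where none was.

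Myocd-LSD1 peaks at the chromatin genes, like those of the whole list, lay mostly on sites that were also in the Control list. Control peaks were 2.52 times as many as Myocd-LSD1 peaks (interval 1.78 to 3.63), beside 2.68 times in the whole lists of 9523 Myocd-LSD1 and 25521 Control peaks, so the lower number was shared by the list as a whole. Of the 46 Myocd-LSD1 peaks, 33 overlapped the Control list by 1 bp or more (71.7%, interval 56.5 to 84.0). The share over all Myocd-LSD1 peaks was 59.4%, which lay within that interval. Of the 116 Control peaks, 35 were overlapped by a Myocd-LSD1 peak (30.2%, 22.0 to 39.4), beside 22.0% of all Control peaks, a share that stood at the lower bound of that interval. This share depended on the length of the lists. With the Control list shortened to as many peaks as the Myocd-LSD1 list, it was 56.5% (41.1 to 71.1), beside 38.7% of all. The share of overlapped Myocd-LSD1 peaks was then 52.2% (36.9 to 67.1), beside 39.1%. By gene, 30 of the 62 had peaks in both lists, 4 in the Myocd-LSD1 list alone and 28 in the Control list alone. Those in both lists made up 88.2% of the 34 genes of the Myocd-LSD1 list (72.5 to 96.7, beside 81.2% of all its genes) and 51.7% of the 58 of the Control list (38.2 to 65, beside 46.2%). At promoters, 19 of 42 genes with a Control peak also had a Myocd-LSD1 peak (45.2%, 29.8 to 61.3), against 43.4% of all genes. These gene shares lay within counting error of the shares over all genes.

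Overlap varied with the kind of site. Promoters within 1 kb of a start site held 21 of the 46 Myocd-LSD1 peaks (45.7%, beside 39.6% of all) and 39 of the 116 Control peaks (33.6%, 25.1 to 43.0, beside 23.4%). The Control interval lay above the share over all Control peaks. Peaks that lay across a start site numbered 12 in the Myocd-LSD1 list (26.1%, beside 21.1%) and 16 in the Control list (13.8%, beside 11.7%). Within 1 kb, 15 of the 21 Myocd-LSD1 peaks overlapped a Control peak (71.4%, beside 69.8%), and outside promoters 13 of 20 did (65%, beside 51.7%). Of the 39 Control peaks within 1 kb, 18 were overlapped (46.2%, beside 44.5%), and of the 16 across a start site 10 were (62.5%, beside 57.7%). Exon peaks were rarely overlapped, with 1 of 13 (7.69%, beside 8.52%), and so were intron peaks, with 4 of 31 (12.9%, beside 14.4%). The flanks from 1 to 3 kb had 4 of 9 overlapped (44.4%, 13.7 to 78.8, beside 15.0%) and distal intergenic sites 8 of 23 (34.8%, 16.4 to 57.3, beside 18.9%). Both of these intervals include the share over all peaks.

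**Figure D1:**
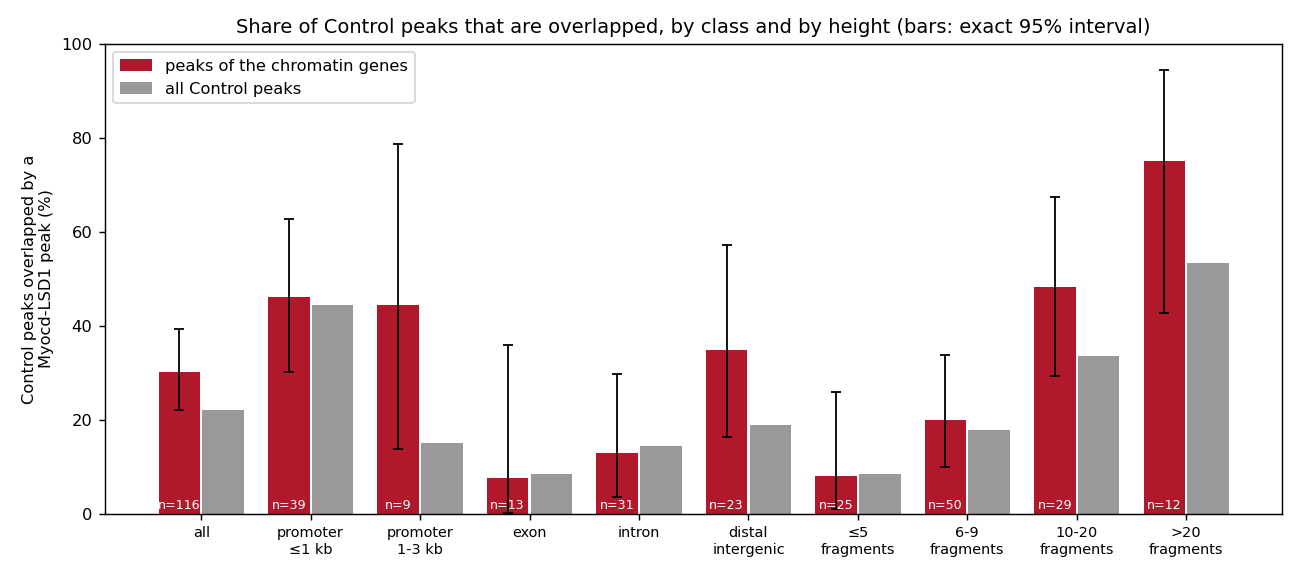
Share of Control peaks overlapped by a Myocd-LSD1 peak (y axis, %), by annotation class and by fragments at the summit (x axis). Red bars are peaks of the chromatin genes with their exact 95% interval and n, and grey bars are all Control peaks. Red bars reach 46.2% within 1 kb of a start site and 7.69% in exons, and run from 8% at up to 5 fragments to 75% above 20 fragments.

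Peak height went with overlap. Of the Control peaks of the chromatin genes, 2 of 25 with up to 5 fragments were overlapped (8%, beside 8.38% of all Control peaks), 10 of 50 with 6 to 9 (20%, beside 17.8%), 14 of 29 with 10 to 20 (48.3%, 29.4 to 67.5, beside 33.6%) and 9 of 12 with more than 20 (75%, 42.8 to 94.5, beside 53.3%). The median fold enrichment was 7.20 for overlapped and 4.97 for other Control peaks of these genes, on a median of 13 and 7 fragments. Over all Control peaks these were 6.69 and 4.98, on 11 and 7. In the Myocd-LSD1 list the medians were 5.99 and 4.24, on 8 and 4 fragments, beside 5.54 and 3.63, on 6 and 3, over all its peaks. The same order was thus found in the whole lists. All 13 Myocd-LSD1 peaks of these genes without a Control peak rested on 9 fragments or fewer. Of the 81 Control peaks of these genes that were not overlapped, 63 had 9 fragments or fewer. The shares over all peaks at that height are not given here. All peaks without overlap had a low median too, of 3 fragments in Myocd-LSD1 and 7 in Control. More than 20 fragments were found at 3 of those 81, beside 877 of all 19898 Control peaks without overlap. In the Myocd-LSD1 list 1 of all 3867 peaks without overlap had more than 20.

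**Figure D2:**
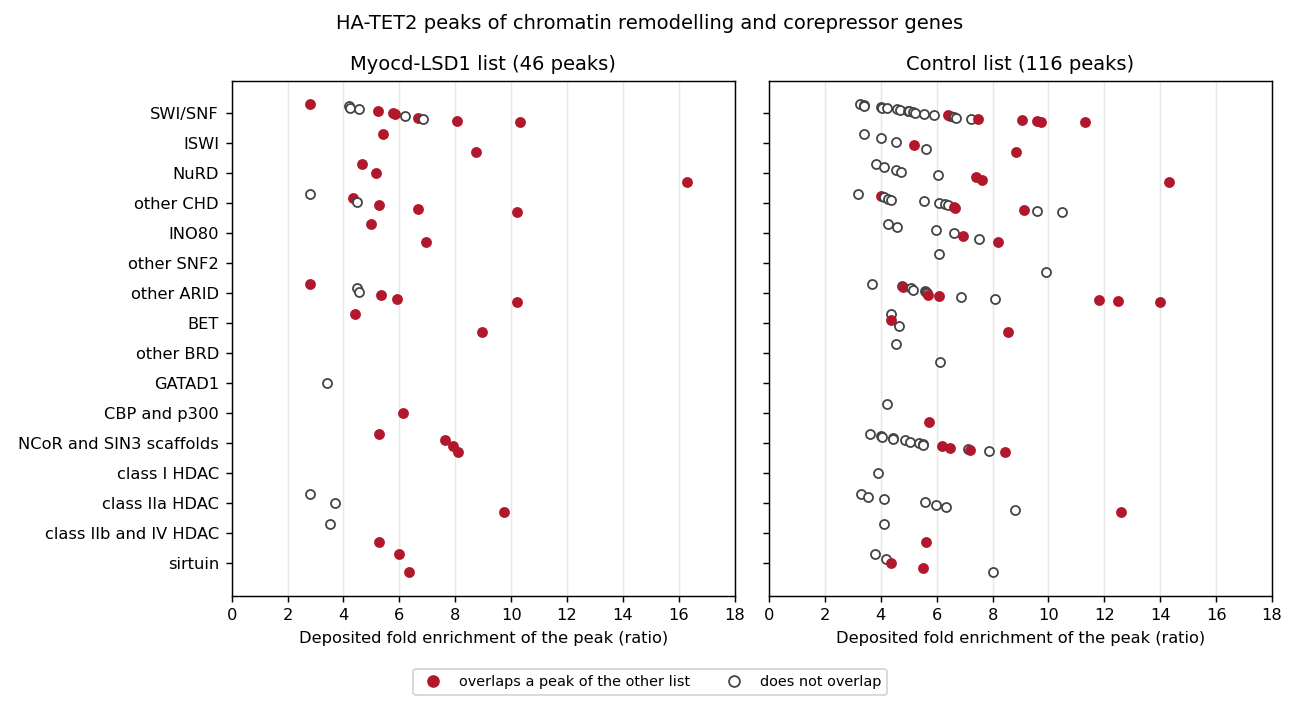
Deposited fold enrichment (x axis, ratio) of every peak of the chromatin genes in the Myocd-LSD1 list (left) and the Control list (right), with 1 row per group of genes (y axis). Filled points overlap a peak of the other list, and points are shifted within a row to keep them apart. The highest point in each panel is Gatad2a of NuRD, at 16.3 and 14.3, and it is filled in both.

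The SWI/SNF remodellers had TET2 peaks at 14 genes, with 12 Myocd-LSD1 and 24 Control peaks, of which 7 Control peaks were overlapped. Smarca4, which encodes the ATPase BRG1, had a peak across its start site in both lists. The Myocd-LSD1 peak (rn6 chromosome 8, 22647941 to 22648688) had a fold of 8.05 on 11 fragments, and the Control peak (22647980 to 22648684) one of 9.04 on 16. The peaks thus covered nearly the same stretch. Smarca2, the gene of the alternative ATPase BRM, had no assigned Myocd-LSD1 peak and 3 Control peaks of 6, 3 and 3 fragments. Arid2, a subunit of the PBAF form, carried the highest peaks of the complex. In its intron 3 of 20 the Myocd-LSD1 peak (chromosome 7, 137717742 to 137718343) had a fold of 10.3 on 16 fragments and the Control peak (137717642 to 137718303) one of 11.3 on 28. Upstream of Arid2 the Myocd-LSD1 peak had 7 fragments against 23 in Control (Control, 137678369 to 137678928, fold 9.72), with summits at the same base. A second upstream Myocd-LSD1 peak, 710 bp from the start site (137679579 to 137679854, fold 4.54, 6 fragments), lay 650 bp from the nearest Control peak.

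Other SWI/SNF subunits differed among themselves. Arid1a, a subunit of the BAF form, had 3 Myocd-LSD1 peaks of 8, 2 and 8 fragments, all intergenic and upstream at 3637, 23369 and 53917 bp from the start site. Each overlapped a Control peak, of 12, 7 and 12 fragments, while the Control peaks in its promoter flank and in intron 4 of 19 were not overlapped. Its paralogue Arid1b had an upstream Myocd-LSD1 peak (7 fragments) and an intron 4 Control peak (7 fragments) that lay apart. Brd9, the bromodomain subunit of the non-canonical complex, had a peak across its start site in both lists, with a fold of 6.65 on 7 fragments in Myocd-LSD1 and 9.58 on 13 in Control (Control, chromosome 1, 31967544 to 31967885). Smarcd2 and Smarce1, both accessory subunits, had peaks in the Myocd-LSD1 list alone, on 9 fragments across the start site of Smarcd2 (chromosome 10, 94460718 to 94461071, fold 6.86) and on 4 fragments at each of 2 sites of Smarce1. The Smarce1 sites lay across the start site (chromosome 10, 87137902 to 87138161, fold 4.21) and in intron 9 of 11. Smarcb1, Smarcc1, Smarcc2, Smarcd1, Smarcd3 and Brd7 had Control peaks only. The highest of those was a flank peak of the core subunit gene Smarcb1 (chromosome 20, 13684984 to 13685518, fold 7.21, 14 fragments). Start site peaks of Smarcd1 (chromosome 7, 141355984 to 141356301, fold 6.68, 11 fragments) and of the core subunit gene Smarcc1 (chromosome 8, 118206555 to 118206927, fold 6.63, 8 fragments) followed.

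ISWI remodellers, which space nucleosomes, had 2 Myocd-LSD1 and 6 Control peaks at 4 genes. Baz1b, a partner of the ISWI ATPase, had a start site peak in both lists with summits at the same base, at 6 fragments in Myocd-LSD1 and 15 in Control (Control, chromosome 12, 24536592 to 24537241, fold 8.85). Smarca5, the ATPase itself, was one of 4 overlapped sites at which the Myocd-LSD1 peak was the higher one. That peak (chromosome 19, 30935890 to 30936107, fold 8.74, 11 fragments) lay between 2 Control peaks of 7 and 6 fragments and touched only the farther upstream one, with 80 bp to the other. Baz2a and Baz2b had 1 Control peak each, of 6 and 7 fragments, and no Myocd-LSD1 peak assigned.

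NuRD genes, which join a CHD ATPase to deacetylases, included the site with the highest fold of the whole set. At Gatad2a, a structural subunit, the peak across the first start site had a fold of 16.3 on 36 fragments in Myocd-LSD1 (chromosome 16, 21177399 to 21177897) and 14.3 on 35 in Control (21177458 to 21178044), with summits 3 bp apart. The peak near another start site had 5 fragments in Myocd-LSD1 and 9 in Control. The pile-ups at the first site thus differed by 1 fragment, and the peaks there were the highest by fold among the chromatin genes in each list. Mta3 had an overlapped peak in intron 3 of 18, of 6 fragments in Myocd-LSD1 and 16 in Control. The ATPase genes Chd4 and Chd5 and the subunit genes Mta1 and Mta2 had 1 Control peak each and no Myocd-LSD1 peak assigned. Those of Chd4, Chd5 and Mta1 were intergenic with 4, 4 and 5 fragments, and that of Mta2 lay across the start site with 9 (chromosome 1, 225140814 to 225141057, fold 6.06).

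CHD remodellers outside NuRD had 6 Myocd-LSD1 and 14 Control peaks at 7 genes. Chd1, whose human product binds methylated H3K4, had an overlapped flank peak about as high in both lists, with a fold of 10.2 on 14 fragments in Myocd-LSD1 and 9.12 on 13 in Control (Control, chromosome 1, 57690419 to 57690716). The flank peak of Chd2 had 7 fragments in Myocd-LSD1 and 10 in Control, and the promoter peak of Chd1l had 5 in Myocd-LSD1 and 4 in Control. Chd6 had 1 Control peak, of 7 fragments in intron 1 of 36. Chd7 and Chd8 had peaks in both lists that did not touch each other. A Control peak of Chd8 in exon 26 of 39 (chromosome 15, 28635523 to 28635784, fold 10.5, 16 fragments) was not overlapped, nor was its start site peak (28672452 to 28672664, fold 6.29, 7 fragments). Chd9 had 1 Myocd-LSD1 peak, 4 fragments high and 63325 bp upstream, on a Control peak of 8. Its 5 other Control peaks were not overlapped. The highest, in the promoter (chromosome 19, 17517790 to 17518147, fold 9.58), had 13 fragments, and the others, all intergenic, had 5, 3, 7 and 4 from the nearest to the farthest.

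INO80 genes, whose complex slides nucleosomes and acts on H2A.Z, had 2 Myocd-LSD1 and 7 Control peaks. The intergenic peak assigned to Ino80, the ATPase, had 9 fragments and a fold of 6.94 in both lists (Control, chromosome 3, 111283801 to 111284395). Of 5 Control peaks of the subunit gene Ino80c, an intergenic one of 12 fragments was overlapped by a Myocd-LSD1 peak of 5. The subunit gene Ino80d had 1 Control promoter peak (chromosome 9, 69887565 to 69887837, fold 6.63, 8 fragments), which was not overlapped. Smarcal1, an SNF2 helicase that anneals DNA at stalled forks, had 2 Control peaks, both in exons and neither overlapped. The peak in exon 4 of 18 (chromosome 9, 79947993 to 79948748, fold 9.92) rested on 26 fragments.

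Among ARID genes outside SWI/SNF, the promoters of Arid4a and Arid4b, partners of the SIN3 complex, showed how gene assignment can hide an overlap. Control peaks covered the start site of Arid4a (chromosome 6, 93461342 to 93461760, fold 12.5, 22 fragments) and of Arid4b (chromosome 17, 53955888 to 53956234, fold 11.8, 19 fragments). Both counted as genes of the Control list alone. Each peak was nevertheless overlapped, at 13 and 11 fragments, by a Myocd-LSD1 peak that the authors assigned to LOC102552179 and to Ggps1. With these counted, 32 of the 58 genes of the Control list were in both lists (55.2%). The share over all genes under that rule is not given here. Arid5a had the highest Control site of this group, an intergenic one of 35 fragments against 14 in Myocd-LSD1 (Control, chromosome 9, 42889187 to 42889971, fold 14.0). Arid5b, a cofactor of the demethylase Phf2, had 6 Control peaks, of which the intergenic one 11551 bp upstream (6 fragments) was overlapped by a Myocd-LSD1 peak of 2. Its 5 intron peaks had 7, 8, 14, 7 and 9 fragments in order from the start site and were not overlapped. The peak of 8 lay 30 bp from a Myocd-LSD1 peak of 4 fragments. Arid5a also had a Myocd-LSD1 peak across a start site (chromosome 9, 42871889 to 42872144, fold 4.54, 5 fragments) with no Control peak on it. A site assigned to Arid3a, in intron 22 of 22 of Arhgap45, had 8 fragments in Myocd-LSD1 and 20 in Control, while a Control peak of 24 in the same intron was not overlapped. The flank peak of Arid3b had 5 fragments in Myocd-LSD1 and 7 in Control. Arid3c had 1 Control promoter peak (chromosome 5, 58112126 to 58112713, fold 8.09, 11 fragments), which was not overlapped.

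Among readers and writers of acetylation, Brd3 and Ep300 had peaks in both lists. Brd3, a BET protein, had overlapped peaks across its start site, with 12 fragments in Myocd-LSD1 and 14 in Control (Control, chromosome 3, 6024702 to 6025515, fold 8.54), and in intron 1, with 4 and 5. Brd2, Brd1 and Brd8 had 1 Control peak each, of 9, 6 and 8 fragments, and no Myocd-LSD1 peak assigned. The Brd8 peak lay across a start site (chromosome 18, 27423844 to 27424263, fold 6.11). Ep300, which encodes p300, had 7 fragments at its promoter in both lists (Control, chromosome 7, 122817972 to 122818926, fold 5.72). No peak was assigned to Crebbp, the gene of CBP, in either list, and a Myocd-LSD1 peak of 2 fragments in an exon of Crebbp was assigned to Trap1. Gatad1 had 1 Myocd-LSD1 peak, in its promoter on 3 fragments (chromosome 4, 27647055 to 27647220, fold 3.42), and no Control peak.

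Corepressor scaffold genes had promoter peaks. Sin3a, the scaffold of the SIN3 deacetylase complex, had 2 high promoter peaks in both lists. The one across a start site had 18 fragments in Myocd-LSD1 and 26 in Control (Control, chromosome 8, 61749931 to 61750396), and the other had 28 in Myocd-LSD1 and 34 in Control (Control, 61752332 to 61752752, fold 8.11 in Myocd-LSD1 and 8.44 in Control). Its paralogue Sin3b had 3 Control peaks of 5, 6 and 6 fragments and none in Myocd-LSD1, and 1 of those lay in an intron of Nwd1. Ncor1 had 1 Control peak, of 6 fragments across its start site, which was not overlapped.

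**Figure D3:**
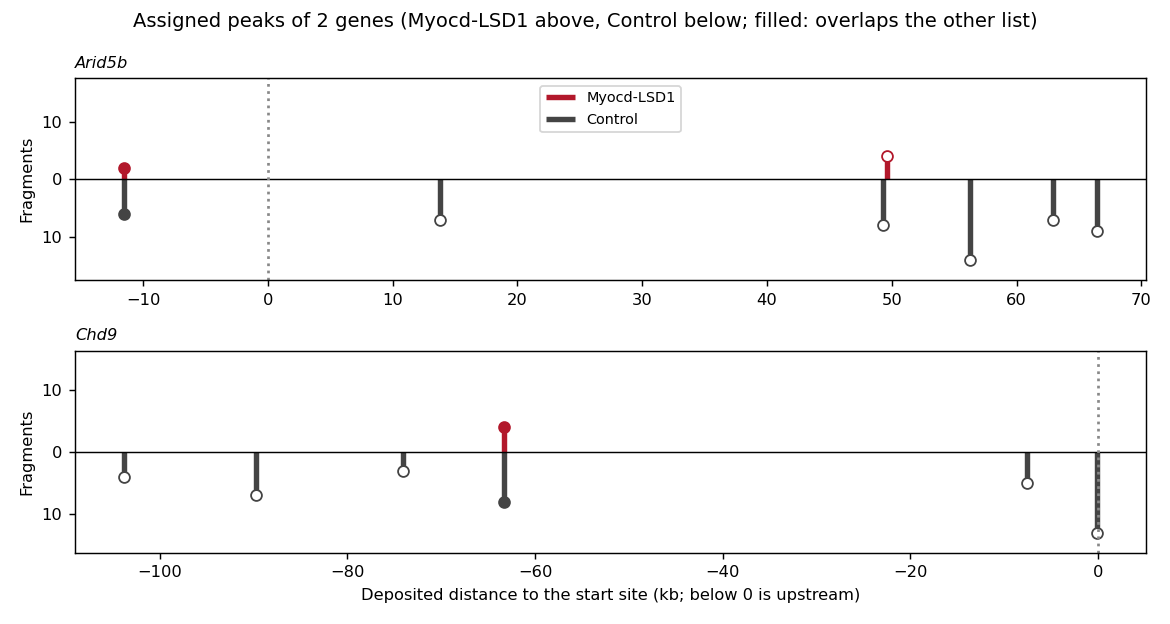
Fragments at the summit (y axis) of the peaks assigned to Arid5b and Chd9, with 6 Control peaks each, against the deposited distance to the start site (x axis, kb). Myocd-LSD1 peaks point up and Control peaks down, and filled points overlap the other list. In each gene 1 of the 6 Control peaks is filled.

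Deacetylase genes of class IIa had 3 Myocd-LSD1 and 8 Control peaks. Hdac4, which represses MEF2, had a high promoter peak in both lists, with a fold of 9.73 on 15 fragments in Myocd-LSD1 (chromosome 9, 99299762 to 99300537) and 12.6 on 23 in Control (99299746 to 99300351). Its other Myocd-LSD1 peak had 2 fragments, and its 4 other Control peaks had 3 to 7 and were not overlapped. Hdac7 had an unmatched Control peak of 19 fragments in intron 1 of 24 (chromosome 7, 139310880 to 139311483, fold 8.81) and another of 9 in its promoter. Hdac5 had 1 intron peak in Myocd-LSD1, on 4 fragments, and none assigned in Control, while Hdac9 had 1 in Control, on 6. A Control peak of 8 fragments in an exon of Hdac5 (chromosome 10, 90149021 to 90149381, fold 5.59) was assigned to G6pc3 and was not overlapped. Hdac6, a cytoplasmic tubulin deacetylase, had an overlapped promoter peak of 5 fragments in Myocd-LSD1 and 7 in Control. Hdac10 had a promoter peak of 3 fragments in Myocd-LSD1 (chromosome 7, 130107308 to 130107503, fold 3.50) and one of 5 in Control that lay 12 bp apart, so it counted as in both lists without an overlap. Hdac3, the catalytic subunit of NCoR complexes, had 1 Control promoter peak of 7 fragments and none in Myocd-LSD1.

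Sirtuins, the NAD-dependent deacylases, had peaks assigned at Sirt3, Sirt4 and Sirt5, whose products are mitochondrial. At the promoter of Sirt3, 6 fragments were found in both lists (Control, chromosome 1, 213635611 to 213635979). One of 3 Control promoter peaks of Sirt4 was overlapped, with 13 fragments in both lists, while a higher one of 19 (chromosome 12, 46870309 to 46870759, fold 8.03) was not. Sirt5 had 1 Control peak of 7 fragments. No peak was assigned to Sirt1, Sirt2, Sirt6 or Sirt7. An intron of Sirt2 held an overlapping pair, of 6 fragments in Myocd-LSD1 and 11 in Control, which was assigned to Rinl.

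Where the lists overlapped, the summits were close and the Control pile-up was usually the higher. Over the 35 overlapped Control peaks, the median distance to the Myocd-LSD1 summit was 67 bp, 24 were within 100 bp, and the largest was 368 bp. The Myocd-LSD1 pile-up was lower at 27 sites, equal at 4 and higher at 4, which were Smarca5, Gatad2a, Chd1 and Chd1l. Pile-ups were not scaled between the lists. Over all overlapped peaks the median was 11 fragments in Control and 6 in Myocd-LSD1, beside 13 and 8 at these genes. Across these 35 pairs, which share their sites and the calling threshold, Spearman's rho of the folds was 0.544. Control peaks were wider than their counterpart at 22 of the 35. Median widths of overlapped peaks were 419 bp in Control and 334 in Myocd-LSD1, beside 422 and 291 over all overlapped peaks. Summit distances and the counts of higher, lower and wider peaks were not worked out over all overlapped peaks. They are thus not shown to be particular to these genes.

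**Figure D4:**
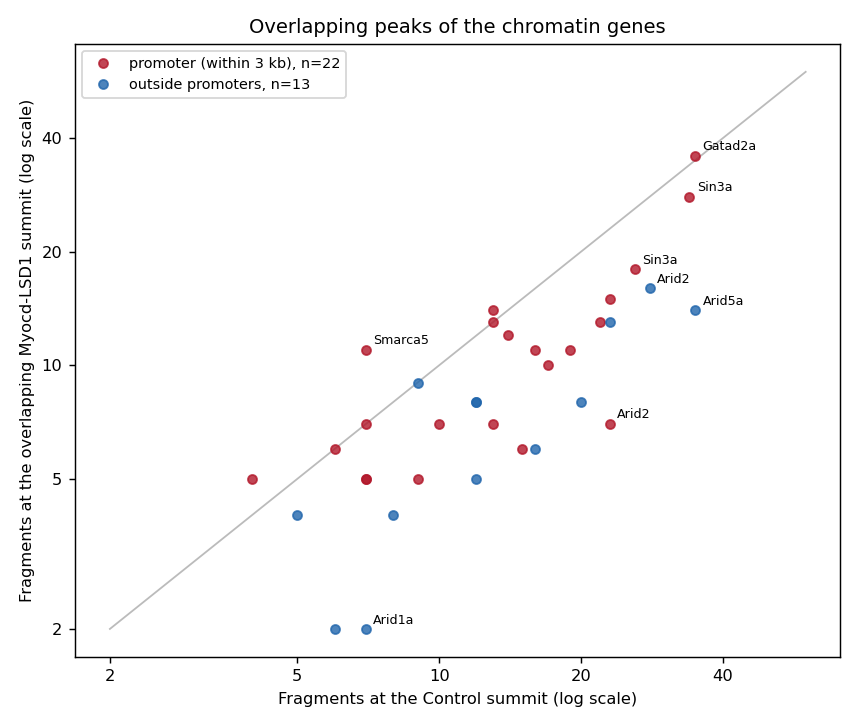
Fragments at the summit of each of the 35 overlapped Control peaks (x axis, log scale) and of the Myocd-LSD1 peak on it (y axis, log scale), with a line of equal height. Red points lie within 3 kb of a start site and blue points outside. Gatad2a sits just above the line at the top, and 27 points lie below the line.

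Reading by location rather than by assigned gene added sites. Inside the chromatin genes, 13 further Myocd-LSD1 peaks and 36 further Control peaks were assigned to a neighbour. Of these Control peaks 7 were overlapped, among them 3 in introns of Arid1b and 1 in an exon of Baz2b (chromosome 3, 45983232 to 45983746, fold 14.4 on 39 fragments, against 4 in Myocd-LSD1). Chd7, mutated in CHARGE syndrome in people, had 4 such Control peaks in exons, of up to 23 fragments, none overlapped. In all, 152 Control peaks were assigned to these genes or lay within them, and 42 were overlapped (27.6%, 20.7 to 35.5, beside 22.0% of all Control peaks). Of the 13 in exons with 10 fragments or more, 2 were overlapped (15.4%), beside 15.6% of all Control exon peaks of that height.

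A list of 48 other subunits and partners of these complexes had 24 genes with a Myocd-LSD1 peak and 28 with a Control peak. Of the genes with a Control peak 20 were in both lists (71.4%, beside 46.2% of all genes), and 20 of 53 Control peaks were overlapped (37.7%, beside 22.0%). Ep400, an ATPase of the TIP60 complex, had a highest fold of 12.6 in Myocd-LSD1 and 12.9 in Control, and the ISWI partner Chrac1 had 11.2 in Myocd-LSD1 and 12 in Control. Actl6a, a SWI/SNF subunit, had 5.51 in Myocd-LSD1 and 11.6 in Control, and Hdac2, of NuRD, had 5.99 in Myocd-LSD1 and 10.3 in Control. Srcap, which deposits H2A.Z, had 11.3 in Myocd-LSD1 and 11.1 in Control, and the INO80 partner Yy1 had 12.4 in Myocd-LSD1 and 10.7 in Control. Each of these 6 had an overlapped Control peak, but they were chosen for the highest Control fold, and overlap rose with peak height in the whole Control list. The shares of this list were given without intervals and were not matched for the kind of site. The list itself was chosen with earlier results of these data known, so its shares are no independent support.

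By the symbols of RefSeq, 82 protein-coding genes fit the naming pattern and 20 had no assigned peak in either list. The pattern goes by symbol, not by function. A symbol that the authors' rn6 annotation lacks could not have an assigned peak. Among them were Baz1a, Brd10, Brd2l, Brd3os, Chd1l2, Chd3, Chd9nb, Crebbp, Gatad2b, Hdac11, Hdac8, Ino80b, Ino80e, Sirt1, Sirt2, Sirt6, Sirt7, Smarca1 and Smarcad1. CG pairs were common in promoters of the chromatin genes whether or not a peak was assigned there. Of 66 genes with a single promoter in the table, 42 had at least 20 CG pairs in the 300 bases (63.6%), beside 27.6% of all such promoters, and 94.8% of all held at least 1. The median CG number was 23 with an overlapped Control peak within 1 kb (15 genes, beside 24 for all genes of that kind) and 26.5 where no such peak was overlapped (14 genes, beside 21). It was 22.5 with a Myocd-LSD1 peak within 3 kb and no Control peak within 1 kb (6 genes, beside 22). Among those 6, Chd1 and Arid3b had an overlapped Control peak in the flank from 1 to 3 kb. The median was 24 for genes with peaks elsewhere (17 genes, beside 13), which include Control flank peaks, as at Smarcb1, Arid1a and Sin3b. For genes with no assigned peak it was 19 (14 genes, beside 5). Brd10, Brd2l, Brd3os and Chd1l2 are among those 14, to which the same limit of symbols applies. The medians of the chromatin genes ran from 19 to 26.5 and those of all genes from 5 to 24. The differences were not tested.

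**Figure D5:**
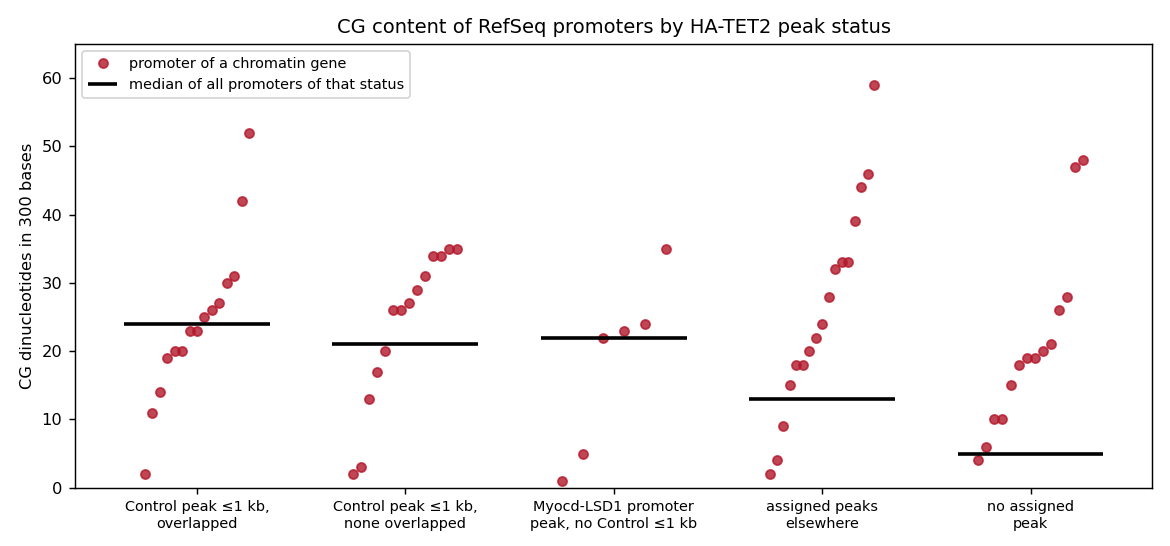
Number of CG pairs in the 300-base RefSeq promoter (y axis) of each chromatin gene with a single promoter, by its TET2 peaks (x axis). Bars are medians over all genes of that kind. Chromatin genes with no assigned peak have a median of 19, where the bar is at 5.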

How the data were processed

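HA-TET2 CUT&Tag was measured in 1 Myocd-LSD1 and 2 Control samples. Bowtie2, deepTools, MACS2 and ChIPseeker and build rn6 were used, per the submitters' processing notes, with no version or setting stated. The authors deposited 1 annotated peak list per group, and the sources do not say whether Control reads were pooled. Fold enrichment, a ratio deposited for each peak, was compared only as the authors gave it. Each peak has a deposited −log10 p-value and −log10 q-value, and the lowest −log10 q in the authors' deposited table was 1.31 for Myocd-LSD1 and 1.32 for Control. The deposited score was not used. Distances and summit offsets in bp, annotation classes and gene assignments are the authors' own. In the Myocd-LSD1 list 23 and in the Control list 45 peak numbers are missing, including peak 1, whose name stands in the header.

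Starts are counted from 1. Fragments at a summit were taken as the whole number that gives the deposited fold and p-value under the formulas of MACS2, which settled 99.8% of the peaks of each list. On 1876 peaks simulated with the same formulas 100% were recovered. That checks the inversion only, not whether the deposited lists follow the formulas. Overlaps differed from bedtools 2.31.1 in 0 peaks. Analyses used Python 3.11.15, pandas 2.3.3 and scipy 1.17.1. Overlap means at least 1 bp. Promoters extend 3 kb both ways from a start site. RefSeq promoter sequences (GRCr8) were matched by symbol for 56 of the 62 genes.

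The genes, their grouping and the partner list were chosen with earlier results of these data known. Any gene of the set could be named. Positions were given for the Control peak of highest fold in each complex, up to 10 Control promoter peaks with and 10 without overlap, and Myocd-LSD1 promoter peaks without overlap. All peaks of the genes with most Control peaks were to be described, and of the partners the 6 of highest Control fold. Some items that these rules take are not reported here. Alternatives were a −log10 q of at least 2, a Control list shortened by q to the length of the other, a reciprocal overlap of 50%, only promoter peaks and peaks inside the gene itself, promoters of 1 kb, leaving out ARID and BRD genes of no remodelling complex, and 3 chosen after the data were seen.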

Additional observations from a re-analysis of the deposited data

How the results depend on the processing

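The share of overlapped Control peaks of the chromatin genes (30.2%) was 56.5% with the Control list shortened to the length of the Myocd-LSD1 list and 21.6% with a reciprocal overlap of 50%, beside 38.7% and 14.4% of all Control peaks. The share of overlapped Myocd-LSD1 peaks (71.7%) was 52.2% and 50% under the same settings, beside 39.1% and 38.6% of all. The intervals were 41.1 to 71.1 and 14.5 to 30.1 for Control, and 36.9 to 67.1 and 34.9 to 65.1 for Myocd-LSD1. At a −log10 q of at least 2, 30.8% of Control peaks were overlapped (22.3 to 40.5, beside 21.6%). Of Myocd-LSD1 peaks 79.5% were (63.5 to 90.7, beside 71.4%). With the shortened list 67.7% of the genes of the Control list were in both lists, in place of 51.7% (61.7% of all genes), and the ratio of Control to Myocd-LSD1 peak numbers was 1 in place of 2.52 (2.68 over all peaks), since shortening evens out the lists. The other 26 of 32 values lay within the counting interval of the reported value. They include those of 3 settings chosen after seeing the data. In these, gaps of up to 100 bp counted as overlap (32.8% of Control peaks), or Myocd-LSD1 peaks assigned to a neighbour counted (55.2% of genes). The shares over all peaks or genes under these rules are not given here. In the other, only peaks above 3 fragments were kept (30% of Control peaks, 21.6 to 39.5, beside 20.8% of all). No paired analysis was possible because both Control samples share 1 list, and for the same reason no replicate could be left out. Sites of few fragments limit what a missing peak can show.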
